A study of Homo sapiens with 6 samples.

Results

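COX4I1 and MTX1 are both encoded in the nucleus and code for proteins of the mitochondrion. They were measured in A549 cells, an established line of human lung adenocarcinoma epithelium, on 6 one-colour Agilent arrays. Each gene was represented by 1 probe printed as 10 spots on every array, so that 20 spots per array were used, and the 2 probes are 2 of the 58965 distinct probes of the design. The files name these probes by RefSeq transcript, NM_001861 for COX4I1 and NM_002455 for MTX1, and the members were taken by probe name. Total RNA of 3 control arrays, labelled wild type A549, was compared with that of 3 arrays of A549 cells treated with Al2O3 nanoparticles (Al2O3 NPs). The labels give no dose, no exposure time and no vehicle, and do not say whether the 3 samples of a group came from separate cultures, so that p-values measure the spread between these arrays, which may be technical. The labels name Cy3 as the dye, but the labelling steps they give are those of a miRNA kit with the dye Hy3. The files hold green intensities alone and were read as one-colour arrays, and the conflict in how the RNA was labelled was not resolved. Both groups are the same cell line, and its defining markers could not be checked because only 20 probes carry a gene accession. Slide 1 carried all controls together with treated replicate 1, and slide 2 carried treated replicates 2 and 3. The arrays had between 31158 and 34384 probes well above background.

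Most proteins of the mitochondrion are made from nuclear genes and imported after translation. COX4I1 codes for the common isoform of subunit IV of cytochrome c oxidase, the last enzyme of the respiratory chain, which passes electrons to oxygen and pumps protons across the inner membrane. Subunit IV joins the enzyme early in its assembly and takes part in its regulation by ATP. MTX1 codes for metaxin 1, a protein of the outer membrane that works with the machinery that sorts and inserts barrel-shaped membrane proteins. The pair thus marks the inner membrane and the outer membrane of one organelle. Several nuclear genes of the respiratory chain are known to carry sites for the transcription factors GABP and NRF-1 near their start.

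The start of COX4I1 is shown because it holds such letters. The 150 bases before it (RefSeq, GRCh38.p14, chr16:85799545-85799694, plus strand) reach up to the edge of the neighbouring gene EMC8, and the capitals mark the match to CCGGAA, the core of the GABP motif, searched on both strands.
COX4I1: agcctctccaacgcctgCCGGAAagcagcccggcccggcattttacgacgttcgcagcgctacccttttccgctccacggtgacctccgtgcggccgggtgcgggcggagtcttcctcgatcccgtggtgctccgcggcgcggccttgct
In the window of 300 bases around the start, COX4I1 had 3 matches to CCGGAA, of which 1 lies in the stretch shown. MTX1 had 0 in each of its 2 windows, while 20.1% of 27305 genes had at least 1. The COX4I1 window reaches further back than that stretch, into EMC8, and overlapping matches on opposite strands were counted separately. The letters GCGCATGC, a part of one form of the motif that NRF-1 is known to bind, were in the windows of neither gene and in 3.68% of all genes. These matches describe letters only, and the arrays measure no binding. The probe sequences are not given in the sources used here. The RefSeq gene table lists 2 pseudogenes of COX4I1 and 1 of MTX1, and whether the probes also bind their transcripts was not tested.

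COX4I1 transcript showed no significant difference between Al2O3 NPs-treated and control A549 cells. Relative to the 75th percentile of the array, on the log2 scale, its level was 9.91, 9.87 and 9.88 on control replicates 1, 2 and 3. On Al2O3 NPs replicates 1, 2 and 3 it was 9.77, 9.90 and 9.90. Replicate 1 of the treated group was the lowest of the 6 arrays, and the other two treated arrays lay within the range of the controls. The group means were 9.887 ± 0.020 (SD, n = 3) in control cells and 9.856 ± 0.078 (SD, n = 3) in treated cells. The log2 fold change was -0.032 (standard error 0.069, limma adjusted p = 0.779), with a 95% interval from -0.20 to 0.13. In linear terms the interval reached from 0.872-fold to 1.098-fold of control. With an exact permutation test of 3 arrays against 3, which cannot go below 0.1, the two-sided p was 0.8.

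MTX1 transcript likewise showed no significant difference. Its level on the same scale was 8.01, 7.97 and 8.01 on control replicates 1, 2 and 3. It was 7.87, 7.98 and 7.98 on Al2O3 NPs replicates 1, 2 and 3. Replicate 1 of the treated group was again the lowest array, and the groups overlapped. The means were 7.998 ± 0.021 (SD, n = 3) and 7.942 ± 0.062 (SD, n = 3). The log2 fold change was -0.056 (standard error 0.065, limma adjusted p = 0.583), with a 95% interval from -0.21 to 0.10, or 0.862-fold to 1.07-fold of control. The exact permutation test over the arrays gave a two-sided p of 0.3.

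Neither gene was thus among the 15.1% of 32996 probes tested that differed between the groups at a limma adjusted p below 0.05. Nor was either among the 39.7% of probes whose 2 groups did not overlap in either direction. The number of members past an unadjusted p of 0.05 was 0. At the standard error of each probe, a log2 fold change of 0.26 in either direction for COX4I1 and of 0.25 for MTX1 would have passed, which is a change of 1.20-fold and 1.19-fold. The median log2 fold change over all probes tested was -0.057, so that COX4I1 lay 0.025 above it and MTX1 lay at it. The direction of both genes depended on how the arrays were scaled. With each array scaled to its median the log2 fold change was 0.031 for COX4I1 and 0.0058 for MTX1, and after quantile normalization it was 0.020 and 0.049.

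**Figure D1:**
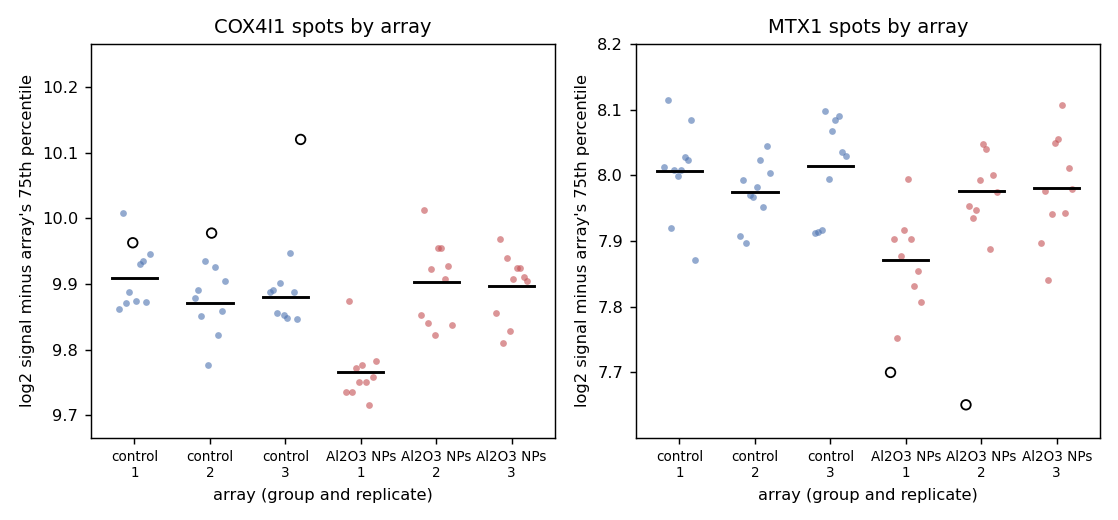
Spots of the COX4I1 probe (left) and the MTX1 probe (right) on the 3 control arrays (blue) and the 3 Al2O3 NPs arrays (red), as log2 signal minus the 75th percentile of the array. Filled points are the spots used, open circles are spots flagged as outliers and left out, and the black line is the mean of the spots used, which is lowest on Al2O3 NPs replicate 1 for both genes, at 9.77 and 7.87; both panels span the same height.

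Both probes were bright and far from either end of the scanner's range. The mean signal of the COX4I1 spots was between 209504 and 223657 units of fluorescence on the 6 arrays, and the brightest spot reached 31.8% of the saturation limit. The mean signal of the MTX1 spots was between 56621 and 59553 units, and its brightest spot reached 8.14% of that limit. The median local background was 30 to 33 units for both, and all 60 spots of each gene were well above background. Probes differ in how strongly they bind, so these signals do not rank the genes.

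Before any scaling between arrays, the levels lay close together. The mean log2 signal of COX4I1 was 17.72, 17.76 and 17.68 in control cells and 17.72, 17.77 and 17.70 in treated cells. That of MTX1 was 15.82, 15.86 and 15.81 in control cells and 15.83, 15.84 and 15.79 in treated cells. On this scale Al2O3 NPs replicate 1 was lowest for neither gene, and the log2 fold change was 0.013 for COX4I1 and -0.012 for MTX1. The 75th percentile that was subtracted was highest on that array, at 7.96, against 7.80 to 7.89 on the controls, and 7.87 and 7.81 on the other treated arrays. That array also had the most spots flagged as outliers, 148 against 36 to 95. Without Al2O3 NPs replicate 1 the log2 fold change of COX4I1 was 0.014, in place of -0.032, and that of MTX1 was -0.021. The part of these array values in the 2 results was not tested. Within slide 1, where that array alone stands for the treated group, it lay 0.12 below the mean of the controls for COX4I1 and 0.13 below for MTX1, with no test.

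The 10 spots of each probe allowed the spread within an array to be set against that between arrays. The SD over the spots used was 0.033 to 0.063 for COX4I1 and 0.047 to 0.080 for MTX1. The standard error of an array's mean was therefore 0.011 to 0.020 for COX4I1 and 0.015 to 0.025 for MTX1. Spots of one array share their RNA and the percentile subtracted from them, so that they are not replicates of the condition and their positions do not vary independently. At 7 of 10 positions the treated mean of COX4I1 was below the control mean, with differences from -0.083 to 0.022. For MTX1 this held at 9 of 10 positions, with differences from -0.13 to 0.013.

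**Figure D2:**
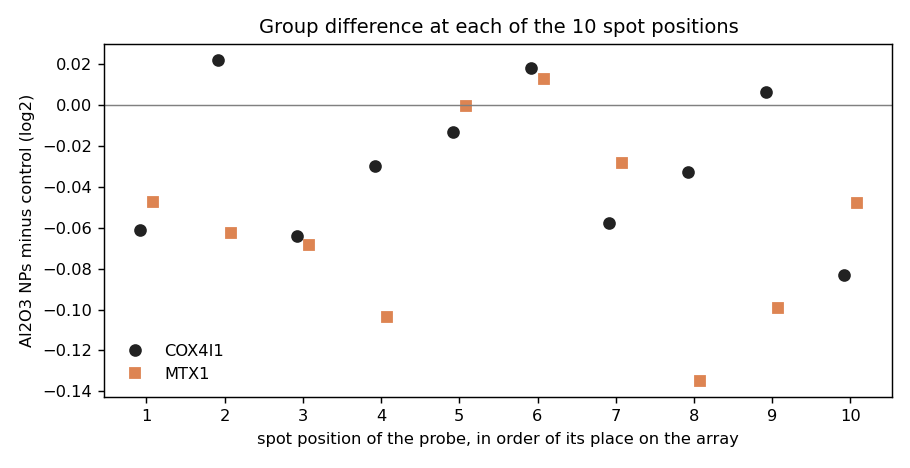
Difference between the mean of the Al2O3 NPs arrays and the mean of the control arrays (log2) at each of the 10 spot positions of COX4I1 (circles) and MTX1 (squares), ordered by place on the array, with flagged spots left out. The grey line is no difference, and the points lie between -0.083 and 0.022 for COX4I1 and between -0.13 and 0.013 for MTX1.

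The level also varied with the position on the array. Relative to the array's mean, averaged over arrays, the spots of COX4I1 ranged by position from -0.057 to 0.070, and those of MTX1 from -0.093 to 0.061. Over the 15 pairs of arrays, the correlation of the profile over the 10 positions ranged from 0.067 to 0.832 for COX4I1, with a median of 0.492. For MTX1 it ranged from -0.0083 to 0.802, with a median of 0.505. Of the 120 spots of both genes, 5 were flagged as outliers, 3 of COX4I1 on the controls and 2 of MTX1 on treated arrays. The COX4I1 spots were 0.053, 0.11 and 0.24 above the mean of the spots used, on control replicates 1, 2 and 3. The MTX1 spots were both at the same position, in the first row of the array, 0.17 and 0.33 below the mean on Al2O3 NPs replicates 1 and 2. With these spots kept, the log2 fold changes were -0.045 for COX4I1 and -0.073 for MTX1, and neither passed.

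No difference in response was detected between the gene of the inner and that of the outer membrane. The COX4I1 level minus the MTX1 level was 1.90, 1.90 and 1.87 in control cells and 1.89, 1.93 and 1.92 in treated cells. This quantity does not depend on the scaling by the 75th percentile. The treated mean exceeded the control mean by 0.025 (standard error 0.015, 95% interval -0.017 to 0.067), with a two-sided exact permutation p of 0.3. After normexp background correction with quantile normalization the difference was -0.083, with an exact permutation p of 0.1, the smallest that 3 arrays against 3 allow.

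The other 18 probes with a RefSeq accession, each also printed as 10 spots, were used for comparison and were not matched in level. Of these, 14 were also lowest on Al2O3 NPs replicate 1. Their median log2 fold change was -0.019, and 9 of the 18 were below 0. PGK1, an enzyme of glycolysis, was the 1 called, at 0.34 on the log2 scale (limma adjusted p = 0.0210). The glycolytic enzyme GAPDH had 0.059, and the ribosomal protein genes RPL10, RPLP1 and RPS18 had 0.012, 0.0024 and -0.040. The PGK1 and RPL10 probes were far dimmer than the members. Their control means were 2.495 and 0.478, against 9.887 for COX4I1 and 7.998 for MTX1. Those of GAPDH, RPLP1 and RPS18 were above both members, at 10.29, 10.03 and 9.95. Why the PGK1 and RPL10 probes were dim was not tested. Ordered from the lowest fold change, MTX1 was number 8 and COX4I1 number 11 of 20. Set against PGK1 on the same array, the log2 fold change of COX4I1 was -0.37 (95% interval -0.50 to -0.25) and that of MTX1 was -0.40 (95% interval -0.51 to -0.28). PGK1 was picked for this from earlier results of these arrays, so the difference is a description. The groups did not overlap in either difference. They did not overlap for PGK1 itself either, so the intervals and the lack of overlap are no result about COX4I1 and MTX1.

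**Figure D3:**
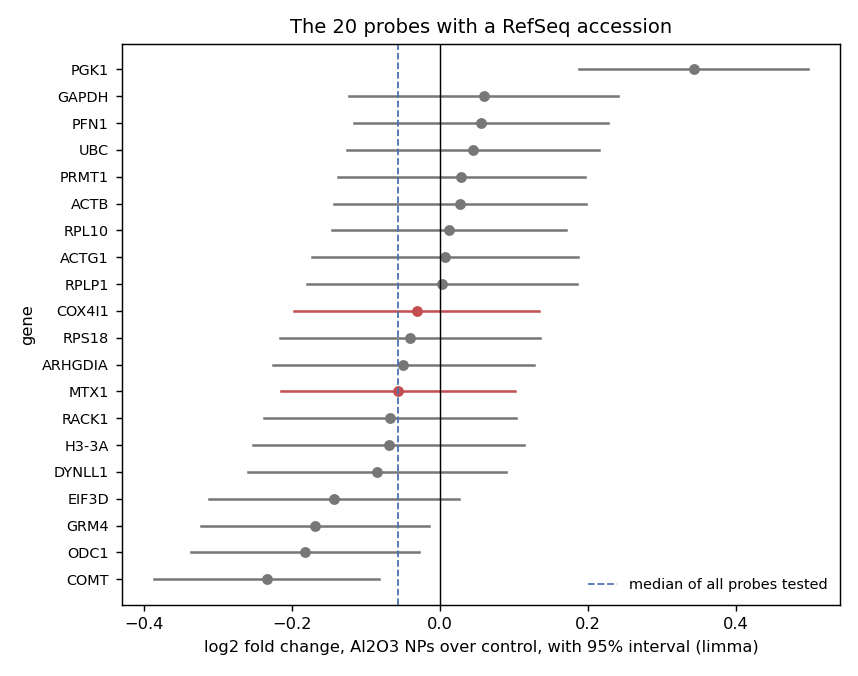
Log2 fold change of Al2O3 NPs over control with its 95% interval (limma) for the 20 probes with a RefSeq accession, ordered by fold change, with COX4I1 and MTX1 in red, no change as a black line and the median of all probes tested as a dashed line at -0.057. The intervals of COX4I1 (-0.20 to 0.13) and MTX1 (-0.21 to 0.10) include both lines, and that of PGK1 lies above both.

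Relative to the median level of these 18 probes, COX4I1 was 0.35, 0.32 and 0.32 in control cells and 0.38, 0.36 and 0.44 in treated cells. The groups did not overlap, and the difference was 0.066 (standard error 0.028, two-sided exact permutation p = 0.1, the smallest possible). Groups without overlap were common, at 39.7% of all probes on the scale of the whole array. That share was not counted relative to these 18 probes. After normexp background correction, with the scaling otherwise unchanged, the COX4I1 difference was 0.0043 (standard error 0.036). The reference moved more than the gene. The median level of the 18 probes was 9.56 in control and 9.46 in treated cells. That is a difference of -0.097 (exact permutation p = 0.1) against -0.032 for COX4I1. By group mean, this median level lay between EIF3D and RACK1, whose log2 fold changes were -0.14 and -0.067. The median log2 fold change of the 18 probes was -0.019, so the reference does not stand for the 18 as a set. For MTX1 the same difference was 0.041 (standard error 0.029, exact permutation p = 0.3). Both directions turned when each of the 18 probes was first centred on its own mean over the 6 arrays, so that all probes weigh alike. COX4I1 then was 9.88, 9.88 and 9.87 in control cells and 9.88, 9.85 and 9.87 in treated cells, a range of 0.029 over all 6, and the difference was -0.0086 (standard error 0.0091, exact permutation p = 0.7). MTX1 then had a difference of -0.033 (standard error 0.020, exact permutation p = 0.3), and its arrays spanned 0.081. On this scale Al2O3 NPs replicate 1 was no longer the lowest array for either gene.

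Among the 18 other probes with an accession, the patterns over the 6 arrays most like that of COX4I1 were those of RPS18 (Pearson r = 0.981), H3-3A, a histone gene (0.926), and ACTG1, a cytoplasmic actin (0.916). For MTX1 they were H3-3A (0.931), RPS18 (0.908) and RACK1, a protein bound to the ribosome (0.847). COX4I1 and MTX1 correlated with each other at 0.918, which was above the value of ACTG1 for COX4I1 and of RPS18 for MTX1. The remaining probes tested were not ranked. All probes share the array and its scaling, and the values changed on the unscaled signals. For COX4I1 they then were 0.946 with RPS18, 0.599 with H3-3A, 0.817 with ACTG1 and 0.783 with MTX1. For MTX1 they were 0.528 with H3-3A, 0.795 with RPS18 and 0.957 with RACK1, so that the order of these genes turned. PGK1 had the lowest correlation of the 18 with both, -0.245 for COX4I1 and -0.536 for MTX1, and on the unscaled signals these were 0.414 and 0.046.

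Other genes of the same processes could not be followed by name. Of 15 genes of the cytochrome c oxidase subunits and their close partners, COX4I1 was the 1 with a probe named by an accession. Of 13 genes of outer membrane import, sorting and the metaxins, MTX1 was the 1. COX5A, COX5B, COX6C, MTX2 and SAMM50 are therefore not analysed here.

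**Figure D4:**
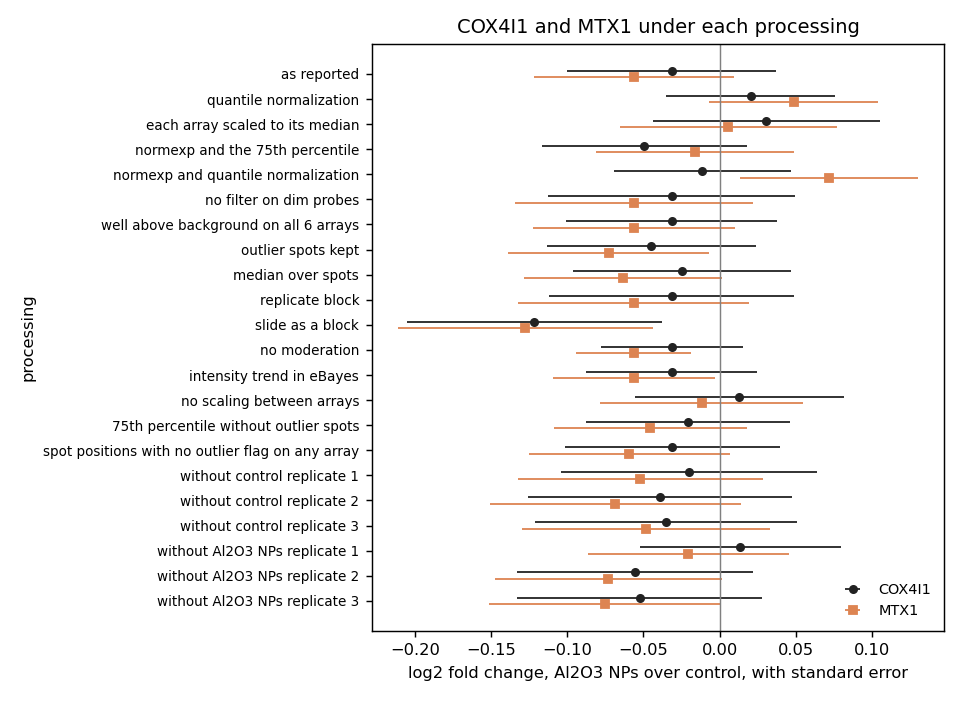
Log2 fold change of Al2O3 NPs over control with its standard error for COX4I1 (circles) and MTX1 (squares) as reported and under each other processing, with no change as a grey line. The values lie between -0.12 and 0.031 for COX4I1 and between -0.13 and 0.072 for MTX1, and change sign with the scaling.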

How the data were processed

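For each array the authors deposited spot intensities and flags from Feature Extraction 11.0.1.1 (design on hg19), background-subtracted and detrended within the array. The authors also deposited log2 values for 58944 probes, which do not include the probes of COX4I1 and MTX1 and were not used. From the intensities, log2(gProcessedSignal) minus the 75th percentile of the array's spots was taken, outlier and control spots were left out, and the spots of a probe were averaged. Probes that at least 3 arrays measured well above background were compared with limma 3.58.1 (R 4.3.3), all 6 arrays and no covariate, with Benjamini-Hochberg adjustment over 32996 probes and a threshold of 0.05. The fit was tested on simulated data with independent normal noise for each probe and no slide effect. That simulation cannot show how the fit behaves with the slide layout of these arrays. Differences within an array were compared by exact permutation of the arrays, two-sided. All 20 accessions matched RefSeq symbols (GRCh38.p14). Named genes were COX4I1, MTX1, the 3 accession probes most correlated with each, and the comparison genes PGK1, GAPDH, RPL10, RPLP1 and RPS18. The members, lists and tests were chosen with earlier results of these data known. The number of arrays limits the precision. Alternatives covered scaling, background correction, filters, spots, blocks, the variance model and leaving out each array.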

Additional observations from a re-analysis of the deposited data

How the results depend on the processing

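Neither COX4I1 nor MTX1 passed the threshold under any alternative, with limma adjusted p between 0.443 and 0.924 for COX4I1 and between 0.392 and 0.965 for MTX1, but both signs depended on the processing. The log2 fold change of COX4I1, -0.032 as reported, was 0.020 after quantile normalization, 0.031 with each array scaled to its median and 0.013 with no scaling. After normexp it was -0.049 with the 75th percentile and -0.011 with quantile normalization. With each array left out in turn it lay between -0.056 and 0.014, the last without Al2O3 NPs replicate 1. That of MTX1, -0.056 as reported, was 0.049 after quantile normalization, 0.0058 with median scaling and 0.072 after normexp with quantile normalization, and lay between -0.075 and -0.021 with each array left out. With the slide as a block, which leaves only slide 1 to compare the groups, the values were -0.12 for COX4I1 and -0.13 for MTX1, as on slide 1 alone. The difference between the genes, 0.025, was -0.033 after normexp with the 75th percentile and -0.083 after normexp with quantile normalization, and 0.013 to 0.034 with each array left out. Relative to the other RefSeq probes, COX4I1 was at 0.0043 after normexp with the 75th percentile and at -0.00087 after normexp with quantile normalization. It was at -0.0086 with those probes centred first and between 0.041 and 0.083 with each array left out. MTX1 was at -0.033 with those probes centred and between 0.018 and 0.065 with each array left out. The cause was not tested.

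Equal replicate numbers were not treated as pairs, since the deviations of such arrays correlated at -0.021, 0.043 and 0.019. These values cannot show whether the samples were prepared as pairs. With the replicate block, the log2 fold changes were -0.032 for COX4I1 (limma adjusted p = 0.813) and -0.056 for MTX1 (limma adjusted p = 0.646). Leaving out single arrays lowered the count of all probes called, 4982, to between 1516 (control replicate 2) and 3403, and it was 1148 with the replicate block, 504 with the slide block and 833 with no filter on dim probes.

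The deposited log2 values hold neither gene, so this alternative was not run. No scaling, slide 1 alone, the 75th percentile without outlier spots, positions free of flags and the centring were added after the data were examined.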
